A study of Mus musculus with 1024 samples.

Results

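The genes of coagulation and fibrinolysis followed here in single cells of the mouse aorta were 9 of the 24422 genes in the count table. They were taken from the table by name, with no threshold on a measured value: Vwf, F8, F3, Procr, Thbd, Tfpi, Plat, Anxa2 and Thbs1. Earlier results of these data were known when these genes were chosen. Each was described across sorting gate, genotype and preparation in the 784 of 1024 wells with 20000 or more counts on genes and 500 or more genes.

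Aortae came from mice of 3 months that were wild type (WT) or carried a deletion of amotl2 in endothelial cells (ECs), written amotl2 ec-/ec- and called KO here. Amotl2 encodes a junctional scaffold protein. The labels give both genotypes the same strain, Amotl2flow/flow with Cdh5-RREert and ROSA26-EYFP, and the study's methods describe a floxed amotl2 gene, a tamoxifen-inducible Cre driven by the Cdh5 promoter of ECs, and a fluorescent reporter of recombination. The labels do not say which of these alleles or agents the WT mice lacked. Cells were released from the luminal side with collagenase, depleted of Cd45+ cells on beads and sorted 1 to a well as Cd31+Cd45- (labelled Endothelial, here ECs by gate) or Cd31-Cd45- (labelled DoubleNegative). Each genotype was sorted in 2 preparations, and the mice within a preparation are not told apart by the labels, so wells were summed into 8 sums of genotype, gate and preparation. Preparation 1 used a plate of its own for each genotype, and the effects of plate and of genotype cannot be told apart within it, whereas in preparation 2 both genotypes shared 1 plate.

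The EC sums held 235 and 50 kept wells in WT and 302 and 89 in KO for preparations 1 and 2, and the double-negative sums held 42 and 12 in WT and 40 and 14 in KO. Sums ranged from 926398 to 94881185 counts, with the double-negative sums of preparation 2 the smallest, and the median well of a sum held between 46891 and 252839 counts. The gate labels were largely borne out by Pecam1, the gene of Cd31, which lay between 7145 and 8591 CPM (gene counts scaled to a common library total) in ECs and between 5.09 and 503 CPM in double-negative wells. In the clustering described below, 14 wells of the EC gate were smooth muscle-like and 2 were fibroblast-like. In the WT double-negative sum of preparation 2, the one with 503 CPM, 1 well clustered with ECs. Ptprc, the gene of Cd45, did not exceed 0.0105 CPM in any sum. Platelets carry products of several genes described here: 6 of their 8 markers were detected, summing to 12.4 to 26.9 CPM in ECs, mostly as Gp1ba, and to 0 to 11.5 CPM in double-negative wells, with Pf4 at most at 0.538 CPM and Ppbp at 0 in every sum. The Amotl2 counts cannot resolve the deleted exon, and gave 59.9 and 94.0 CPM in WT and 51.9 and 45.7 CPM in KO ECs (edgeR, adjusted p = 0.9995). EYFP was at 2.38 and 0.353 CPM in WT and 113 and 85.5 CPM in KO ECs (edgeR, adjusted p = 0.0596), so the reporter followed the genotype label although the labels list it for both genotypes. The WT EC sum of preparation 1 stood apart from the others: 155 of its 235 wells fell in a cluster led by Cd74 and MHC class II genes, which held only 1 other well.

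Haemostasis is a balance between clot formation at a wound and fluid blood elsewhere, and the vessel wall takes part on both sides. Tissue factor, encoded by F3 and carried by cells under the endothelium, starts coagulation when blood reaches it, whereas von Willebrand factor (Vwf) holds platelets at the site and carries factor VIII (F8), a cofactor of the amplifying steps. The endothelial surface restrains the process through the thrombin receptor thrombomodulin (Thbd), the protein C receptor (Procr) and the tissue factor pathway inhibitor (Tfpi), and clears fibrin through the plasminogen activator encoded by Plat, for which annexin A2 (Anxa2) is a surface assembly site. Thbs1 encodes thrombospondin 1, an adhesive matrix and platelet protein.

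On GRCm38, with gene bounds from GENCODE M21, Vwf lies at chr6:125546774-125686679, F8 at chrX:75172715-75382615, F3 at chr3:121723537-121735048, Procr at chr2:155751117-155755471, Thbd at chr2:148404466-148408188, Tfpi at chr2:84432855-84476775, Plat at chr8:22757727-22782844, Anxa2 at chr9:69453620-69491795 and Thbs1 at chr2:118111876-118127133. F8 overlaps Fundc2 and the strand setting of the counting is not given in the sources used here, so its counts are uncertain to that extent. Promoters were matched for 5 of the 9 genes in the RefSeq table of GRCm38.p6, of which that of F8 left no base to search. Those shown are of the gene that was high in double-negative wells (F3, chr3:121723287-121723536, plus strand), of a gene high in ECs (Procr, chr2:155750967-155751116, plus strand) and of a gene abundant in both gates (Anxa2, chr9:69453433-69453619, plus strand). Capitals mark the letters TGANTCA of AP-1 factors, GGGCGG of a GC box and CCACCC of KLF factors, read on either strand, with no position shared between motifs.
F3: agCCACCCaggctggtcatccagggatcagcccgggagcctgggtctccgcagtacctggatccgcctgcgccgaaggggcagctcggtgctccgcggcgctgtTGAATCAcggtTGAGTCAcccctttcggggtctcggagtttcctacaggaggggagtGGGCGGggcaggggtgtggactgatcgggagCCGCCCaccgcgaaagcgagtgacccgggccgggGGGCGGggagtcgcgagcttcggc
Procr: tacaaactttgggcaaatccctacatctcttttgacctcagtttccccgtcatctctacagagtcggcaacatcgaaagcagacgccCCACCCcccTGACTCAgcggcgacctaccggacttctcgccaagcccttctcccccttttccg
Anxa2: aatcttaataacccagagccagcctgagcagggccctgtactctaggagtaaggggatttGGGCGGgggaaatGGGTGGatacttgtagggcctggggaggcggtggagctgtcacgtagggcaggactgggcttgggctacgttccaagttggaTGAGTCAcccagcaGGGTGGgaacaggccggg

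The F3 window held 2 AP-1 matches, letters that occur in 6.75% of all 32851 promoter windows of that length, beside 3 GC boxes (32.7% of windows) and 1 KLF match (28.1%). The Procr window held 1 AP-1 match (4.0% of windows of its length) and 1 KLF match (16.6%), and the Anxa2 window held 1 AP-1 match (5.14%), 1 GC box (22.2%) and 2 KLF matches (20.8%). The windows held neither the TATA box, searched as TATAAA, nor the letters AGGAAG of ETS factors. The GATA letters, AGATAA, were likewise not in them. Neither was the E-box, written CACGTG, nor the TEAD motif, for which the search used GGAATG. Each window stopped at the first annotated UTR or coding base, which left 250 bases for F3, 150 for Procr and 187 for Anxa2. The bases next to the RefSeq start sites of Procr and Anxa2 were thus not searched. The shares over all promoters were taken on a stretch of the same length and position. The pair of Tfpi windows in the table, not shown, held no AP-1 match, and between them a TATA box, 2 ETS matches, 1 GATA match and 2 GC boxes. A match of letters is a description of the sequence alone.

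Which of these genes belong to the ECs of the aorta and which to the other wall cells was asked by comparing the gates over the 8 sums. Vwf, F8, Procr, Thbs1 and Thbd, 5 of the 9 genes, were higher in ECs, 1 was higher in double-negative wells (F3), and Tfpi, Plat and Anxa2 did not pass the test. Of all 12729 genes tested 19% passed, 9.79% as higher in ECs and 9.25% as lower (30.8% at an unadjusted p under 0.05), and the median difference over all genes was 0.15 on the log2 scale. All 9 genes passed the filter on low counts, Vwf, F8, Procr and Thbs1 mainly through the ECs and F3 through the double-negative wells. The test was edgeR's quasi-likelihood test on the sums, with Benjamini-Hochberg adjustment over all genes.

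Vwf, the multimeric platelet adhesion protein stored in Weibel-Palade bodies of ECs, was at 4057 and 2072 CPM in the WT ECs of preparations 1 and 2 and at 2341 and 2856 CPM in KO ECs. In double-negative wells it was at 0.301 and 18.2 CPM in WT and at 0.212 and 0 CPM in KO. The gates did not overlap, and the double-negative sums held 22 Vwf counts in all against 431827 in ECs. The log2 difference was 11.12 (SE 1.23, adjusted p = 0.000524), and the ratio of pooled counts was 2283 (95% interval 1508 to 3643, counting error only).

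F8, whose protein circulates bound to von Willebrand factor, showed the same gate at a far lower level. It was at 32.2 and 25 CPM in WT ECs and at 27.0 and 29.0 CPM in KO ECs, and a single read in the KO sum of preparation 2 was the only F8 count in double-negative wells. The fitted log2 difference of 9.90 (SE 1.45, adjusted p = 0.00316) depends on the prior count of the fit, and the ratio of pooled counts was 509 with a 95% counting interval of 91.4 to 20125.

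F3, the initiator of coagulation, was reversed. It was at 1433 and 141 CPM in WT double-negative wells and at 504 and 107 CPM in KO ones, against 2.25 and 0.353 CPM in WT ECs and 5.80 and 0 CPM in KO ECs. In the double-negative sums of preparation 2, wells that clustered as smooth muscle-like held 36 of 139 F3 counts in WT and 10 of 99 in KO. Most F3 counts of each of these sums came from 1 fibroblast-like well. No EC sum reached a double-negative sum, and the log2 difference was −7.99 (SE 1.37, adjusted p = 0.00463), with a pooled ratio of 194 (179 to 210, counting error only) in favour of the double-negative wells. The 644 F3 counts behind the Endothelial label came from 6 wells, and 495 of them from 1 KO well that clustered with fibroblast-like wells, while 2 wells of an endothelial-like cluster held 82 and 35 counts. The KO sum of preparation 2 held no F3 count, which allows up to 0.354 CPM.

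Procr, Thbd and Tfpi are the natural anticoagulants of the vessel surface, and the fitted difference between the gates was largest for Procr. Procr was at 357 and 504 CPM in WT and at 492 and 485 CPM in KO ECs, and at 6.78 and 0 CPM in WT and 27.9 and 0 CPM in KO double-negative wells, a log2 difference of 5.67 (SE 0.93, adjusted p = 0.00377). Thbd was also present outside the ECs, at 418 and 127 CPM in WT and 93.5 and 101 CPM in KO double-negative wells, against 645 and 823 CPM in WT and 562 and 741 CPM in KO ECs. Its log2 difference of 1.97 (SE 0.39, adjusted p = 0.00853) was thus smaller, although the gates did not overlap. In preparation 2 the double-negative levels of Thbd rested on few wells. Those that clustered as smooth muscle-like gave 33.2 CPM in WT (10 wells) and 2.46 CPM in KO (13 wells). The rest were 1 fibroblast-like well in each genotype and, in WT, 1 well that clustered with ECs. The Thbd call was lost in wells of at least 100000 counts, where the log2 difference was 2.01 (adjusted p = 0.284), and in preparation 1 alone, where it was 1.10 (adjusted p = 0.433). Tfpi lay at 46.2 and 85.4 CPM in WT and 66.0 and 34.6 CPM in KO ECs, and at 48.8 and 25.3 CPM in WT and 59.7 and 17.3 CPM in KO double-negative wells. Its gates overlapped, and the log2 difference was 0.46 (95% interval −0.59 to 1.51, adjusted p = 0.564).

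The 2 fibrinolysis genes were found on both sides of the gate. Plat, encoding tissue-type plasminogen activator, was at 208 and 185 CPM in WT and 146 and 159 CPM in KO ECs, and at 338 and 171 CPM in WT and 158 and 361 CPM in KO double-negative wells. The log2 difference was −0.69 (−1.49 to 0.11, adjusted p = 0.228). Anxa2 was the most abundant of the 9 genes in double-negative wells, at 1508 and 651 CPM in WT and 984 and 579 CPM in KO, and lay at 1746 and 1456 CPM in WT and 1511 and 1498 CPM in KO ECs. Its log2 difference was 0.65 (−0.08 to 1.38, adjusted p = 0.211), and it passed the test in preparation 2 alone (adjusted p = 0.0186) and without the WT double-negative sum of preparation 1 (adjusted p = 0.0206).

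Thbs1 was at 367 and 1015 CPM in WT and 857 and 1092 CPM in KO ECs, against 119 and 2.02 CPM in WT and 33.5 and 1.08 CPM in KO double-negative wells. The log2 difference was 4.46 (SE 1.07, adjusted p = 0.0203), and every EC sum was above every double-negative sum. The call was lost in preparation 1 alone (log2 difference 2.85, adjusted p = 0.0937), without the WT EC sum of preparation 2 (4.04, adjusted p = 0.0529) and without the KO double-negative sum of preparation 2 (4.07, adjusted p = 0.0548). Vwf, F8, F3 and Procr passed under every alternative run.

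**Figure D1:**
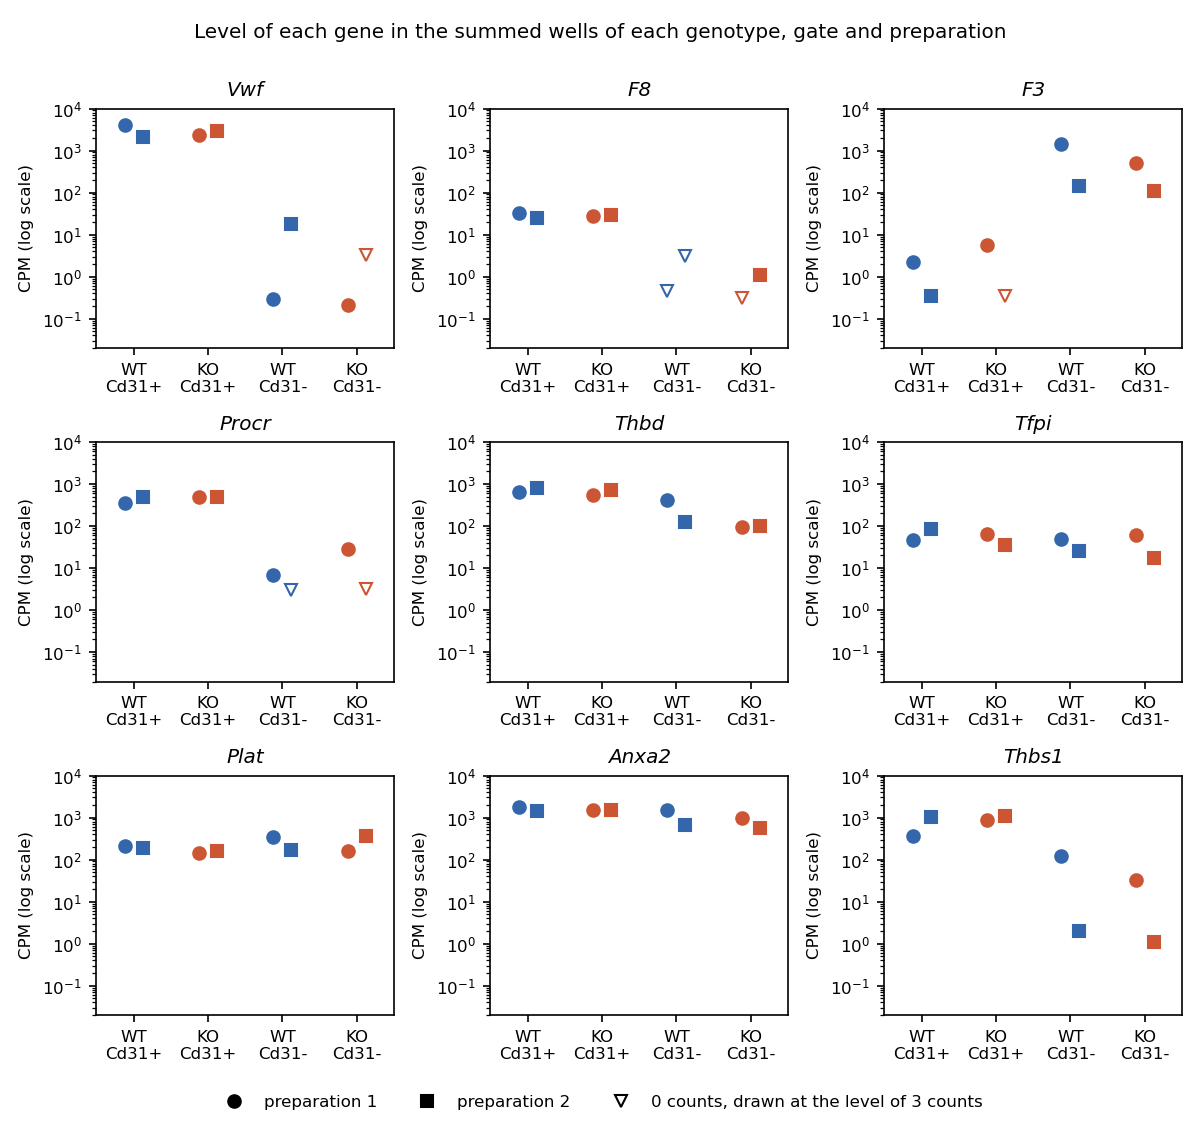
CPM of each gene on a log scale in the 8 sums of genotype, gate and preparation, 1 point for each sum. Vwf, F8, Procr, Thbd and Thbs1 lie higher in the EC sums than in the double-negative sums, F3 lies lower, and the gates overlap for Tfpi and Plat and for Anxa2.

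Compared per kilobase of exon, Anxa2 was the highest of the 9 genes in ECs with 416 ± 35.0 CPM per kb (mean ± SD, n = 4 sums), and its lowest sum of 390 was above the highest of any other gene. Procr (226 ± 33.8), Thbd (186 ± 30.5), Vwf (176 ± 54.7) and Thbs1 (137 ± 53.6) followed, with ranges of 176 to 248, 151 to 221, 129 to 253 and 60.5 to 180 CPM per kb, so neighbours in this order did not differ beyond their spread. Plat at 27.9 ± 4.42, Tfpi at 10.6 ± 4.10 and F8 at 2.86 ± 0.310 formed lower steps whose ranges did not overlap, and F3 was last at 0.831 ± 1.05 CPM per kb. Vwf, far above Procr and Thbd in CPM, was level with them per length on this measure. The length was the union of all annotated exons of a gene, 16064 bases for Vwf, 3723 for Thbd and 2031 for Procr. A single transcript can be shorter than this union, so the order depends on the choice of length. In double-negative wells the first places were taken by Anxa2 (249 ± 114) and F3 (216 ± 245), which overlapped, followed by Thbd (49.7 ± 41.9) and Plat (41.2 ± 17.2).

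The share of wells with a count was compared after each well was thinned to 20000 counts. For 6 genes the shares did not overlap between the gates: Vwf with 98.5% ± 1.38 of EC wells and 4.79% ± 8.0 of double-negative wells (mean ± SD, n = 4 sums each), Thbd with 95.2% ± 3.64 and 35.8% ± 18.1, Procr with 87.6% ± 8.97 and 2.44% ± 2.82, Thbs1 with 45.7% ± 11.7 and 3.04% ± 3.61, F8 with 11.6% ± 4.07 and 0%, and in the other direction F3 with 0.878% ± 0.832 and 34.9% ± 19.8. Each gave an exact two-sided permutation p of 0.0286, the smallest that 4 against 4 sums allow. The gates of a genotype and preparation come from the same sort, and within these 4 pairs, a test added after the data were seen, the exact permutation p was 0.125 for each of the 6, the smallest that 4 pairs allow and above the threshold. Of 10476 genes 14.4% were without overlap higher in ECs and 9.42% lower. Tfpi (22.4% and 17.8%, exact permutation p = 0.343), Plat (49.8% and 54.1%, 0.571) and Anxa2 (98.8% and 95.1%, 0.257) overlapped. Anxa2 was therefore in nearly every cell of both gates, whereas Tfpi was found in a minority of wells of both.

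Whether deletion of amotl2 was accompanied by a change in these genes was asked in the ECs, with 2 sums for each genotype. None of the 9 genes passed, each with an adjusted p of 0.9995 by edgeR, in a comparison in which 0% of 12702 genes passed (468 genes, 3.68%, at an unadjusted p under 0.05, none of them among the 9, and 37 genes by DESeq2, also none of them). The intervals say how large a difference these 4 sums could have missed. They were narrowest for Anxa2, with a log2 difference of KO minus WT of −0.08 (95% interval −0.64 to 0.48), for Plat at −0.35 (−0.93 to 0.23), Procr at 0.19 (−0.43 to 0.81) and Thbd at −0.15 (−0.81 to 0.51). Vwf gave −0.21 (−0.98 to 0.55), F8 −0.02 (−0.84 to 0.81), Tfpi −0.41 (−1.28 to 0.47) and Thbs1 0.51 (−0.48 to 1.49). F3 gave 1.08 with an interval from −2.81 to 4.98, which covers both directions widely.

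The preparations did not give one direction for most genes. For Vwf the log2 ratio of KO to WT CPM was −0.79 in preparation 1 and 0.46 in preparation 2, and for Tfpi it was 0.52 and −1.30. F8 (−0.25 and 0.22), Procr (0.46 and −0.06) and Anxa2 (−0.21 and 0.04) also changed sign. Plat, at −0.51 and −0.22, was the only gene of the 9 with both KO sums below both WT sums, an order held by 14.6% of 11887 genes in this direction, and Thbd (−0.20 and −0.15) was lower in KO within each preparation although its sums overlapped.

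Thbs1 was higher in KO by 1.22 on the log2 scale in preparation 1 and by 0.10 in preparation 2. Without the WT EC sum of preparation 2 it passed the test, with a log2 difference of 1.45 (adjusted p = 0.0134), and without the WT EC sum of preparation 1 the difference was −0.07. The value thus rested on which WT sum was used. The WT EC sum of preparation 1 is the one with 155 wells in the cluster led by Cd74, and in the wells of the 2 largest endothelial-like clusters alone Thbs1 was at 732 and 1038 CPM in WT (44 and 47 wells) and at 936 and 1123 CPM in KO (273 and 84 wells). Vwf in the same wells was at 3335 and 2104 CPM in WT and 2443 and 2833 CPM in KO, and Plat at 116 and 185 CPM in WT and 140 and 159 CPM in KO, so that Plat no longer had both KO values below both WT values. These clusters were built from the same wells and Thbs1 is among the leading genes of one of them, c0, so the values are a description and the part of cluster composition in the difference was not tested.

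**Figure D2:**
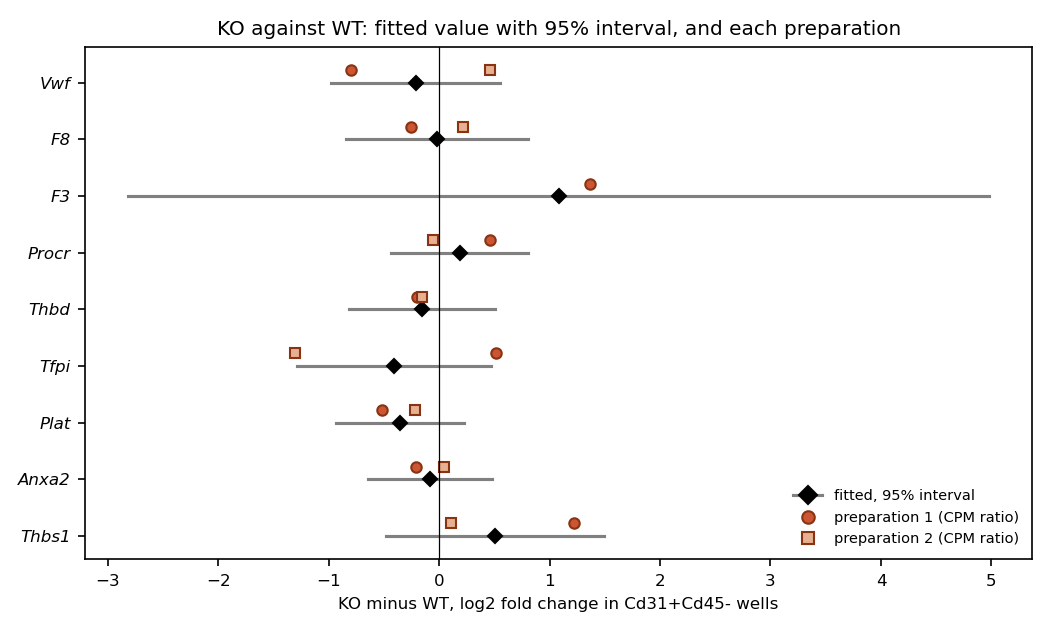
Log2 difference of KO minus WT in ECs for each of the 9 genes, with the 95% interval of the edgeR fit on 4 sums and the ratio within each preparation. All 9 intervals include 0, and the preparations lie on opposite sides of 0 for Vwf, F8, Procr, Tfpi and Anxa2.

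In double-negative wells 0% of 12729 genes passed between KO and WT by edgeR (1130 genes, 8.88%, at an unadjusted p under 0.05, with Vwf and Thbd, 2 of the 9, among them, and 189 genes by DESeq2). Vwf had the lowest p of the 9 genes, with a log2 difference of −5.24 (adjusted p = 0.523), on 20 counts in WT against 2 in KO. Of the WT counts 18 came from 3 wells of preparation 2, and 12 of these from 1 well that clustered with ECs and also held 480 Pecam1 and 38 Cdh5 counts. Vwf passed by DESeq2 (adjusted p = 0.0317), without a filter on low counts (0.000393) and without the WT double-negative sum of preparation 1 (0.0109), always on these few wells. Without the filter Procr (adjusted p = 0.0445) and Thbs1 (0.0324) passed as well.

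Thbd differed by −1.45 on the log2 scale (adjusted p = 0.523) and F3 by −1.35 (adjusted p = 0.871) between KO and WT double-negative wells. The cell composition of these sums differed too. The 8 fibroblast markers, all detected, summed to 31865 and 3179 CPM in WT and to 13720 and 6799 CPM in KO, and the 8 smooth muscle markers to 21089 and 53541 CPM in WT and to 43792 and 51138 CPM in KO. Fibroblast-like wells were 26 of 42 in WT and 9 of 40 in KO in preparation 1, and 1 in each genotype in preparation 2. The other genes had adjusted p of 0.715 or more and intervals that included 0, the narrowest for Anxa2 at −0.44 (95% interval −1.47 to 0.59) and Plat at 0.07 (−1.06 to 1.20). Among the fibroblast-like wells of preparation 1, F3 had nearly equal levels in the genotypes, 2279 CPM (WT) and 2137 CPM (KO), whereas Thbd was at 654 and 272 CPM and Procr at 10.8 and 117 CPM. These within-cluster values have 1 sum for each genotype, and the part of composition in the difference was not tested.

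The difference between the genotype effects of the 2 gates was tested as an interaction, and 0% of 12729 genes passed by edgeR (657 genes, 5.16%, at an unadjusted p under 0.05, with Vwf alone of the 9 among them, and 46 by DESeq2, with none of the 9). The largest of the 9 was Vwf at 5.01 (adjusted p = 0.955), which rested on the same few double-negative wells. Vwf passed without the WT double-negative sum of preparation 1 (adjusted p = 0.0318), and without a filter on low counts Vwf (0.0175) and F3 (0.0341) did.

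Which cells carried each gene was described by clustering the wells, with no test, because the clusters were made from the same counts. By markers, 5 clusters were endothelial-like (c0, c1, c2, c5 and c6, with 249, 200, 156, 33 and 23 wells), 1 was smooth muscle-like (c3, 84 wells) and 1 fibroblast-like (c4, 39 wells). F3 was a gene of the fibroblast-like wells, with 2159 CPM and 94.9% of thinned wells, against 12.4 CPM in smooth muscle-like wells and at most 1.8 CPM in the endothelial-like clusters. The anticoagulants Thbd and Tfpi were also found in these wells, Thbd at 518 CPM in c4 against 541 to 1126 CPM in the endothelial-like clusters and 71.8 CPM in smooth muscle-like wells. Of the 1044 Thbd counts in c3, 667 came from 14 wells of the EC gate. In the double-negative wells of c3 alone, Thbd was at 22.6 and 33.2 CPM in WT and 39.9 and 2.46 CPM in KO. Tfpi was at 75.5 CPM and in 51.3% of thinned wells of c4, against 0.2 to 144 CPM in the endothelial-like clusters. Plat was also high there, at 465 CPM in c4 against 87 to 334 CPM in the endothelial-like clusters.

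Among the endothelial-like clusters the 33 wells of c5, led by Htr2b, Ackr1, Lrg1, Cd36 and Gpihbp1 among others, held more F8 and Vwf counts for their number. F8 was at 334 CPM there and at 3.3 to 21 CPM in the other 4, but few wells carried it: the median well of c5 was at 0, 10 of 19 wells of the WT sum of preparation 1 held 780 counts, 2 of 11 wells of the KO sum of preparation 1 held 1285, and 1 of 3 wells of the KO sum of preparation 2 held 69. The wells of c5, 4.88% of the EC wells, held 48.7% of all F8 counts of the EC gate. Vwf was at 6921 CPM in c5 and at 867 to 3661 CPM in the others, and Tfpi was at 144 CPM and Thbs1 at 19.2 CPM. Not every well of c5 was high in Vwf, with a median of 7673 CPM and a lower quartile of 648 CPM. Vwf was in 81.8% of thinned wells of c5, against 87.0% to 100% in the other endothelial-like clusters. Thbd was at 1126 CPM when pooled, but the median well of c5, at 505 CPM, was within the 477 to 572 CPM of the medians of the other endothelial-like clusters. The wells of c5 were not evenly spread, with 19 in the WT sum of preparation 1, 11 and 3 in the KO sums and 0 in the WT sum of preparation 2, and their Vwf level was 10788 CPM in the first of these and 2557 and 4751 CPM in the KO sums. Cluster c6 was low in most of the genes, with Procr at 131 CPM, Tfpi at 0.2 CPM and Thbs1 at 0.2 CPM. Its pooled Plat, 334 CPM with a median well at 0, and its median Thbd, 572 CPM, were the highest of the endothelial-like clusters.

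**Figure D3:**
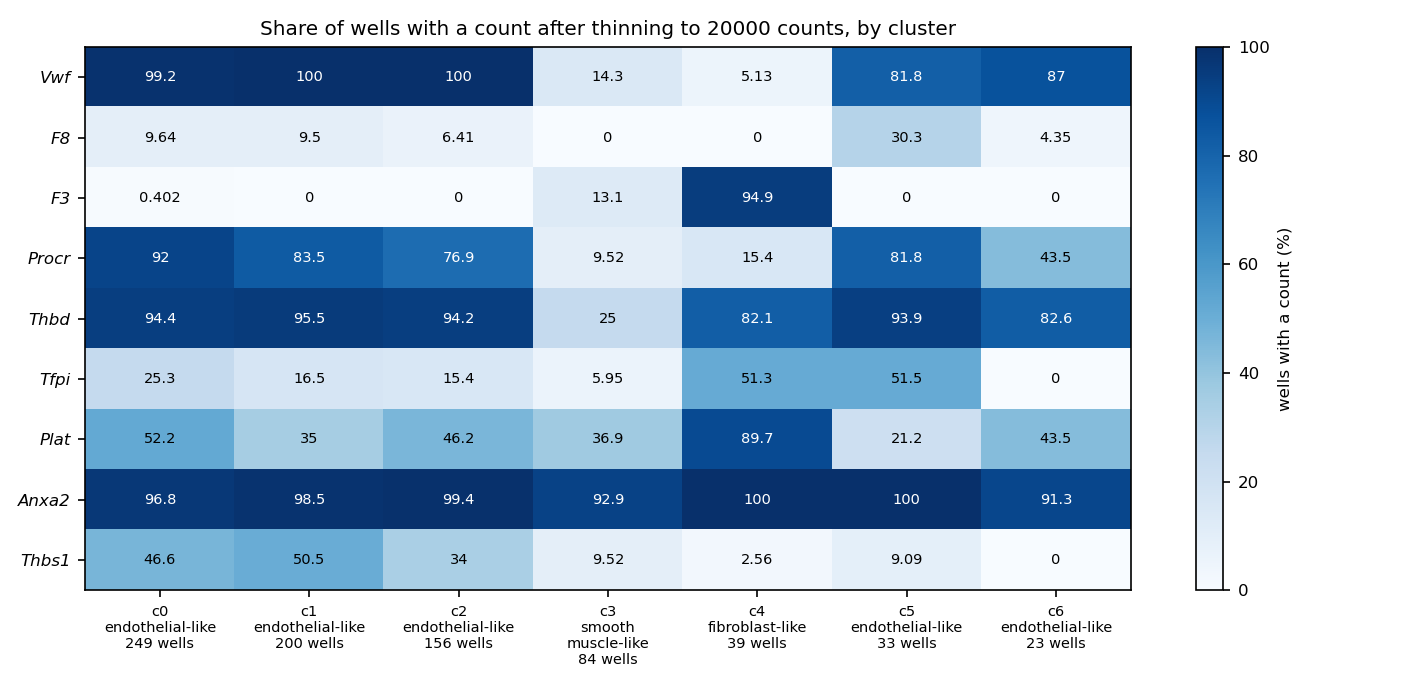
Percent of wells with a count of each gene after thinning to 20000 counts, in each of the 7 clusters, with the value written in each cell. F3 is found in 94.9% of the fibroblast-like wells, and F8 in 30.3% of the wells of c5 against at most 9.64% of those of the other clusters.

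Within the EC gate the genes differed widely in how evenly wells carried them. Anxa2 and Vwf had the lowest spread of the 9 genes: the coefficient of variation (CV) of CPM over wells was 0.523, 0.389, 0.684 and 0.442 for Anxa2 and 0.657, 0.368, 0.658 and 0.410 for Vwf in the WT sums and then the KO sums, and at most 2.98% and 1.99% of wells were at 0. Against genes of like level in the same sum the CV of Vwf was not low, above 35.8% to 74.5% of them, and that of Anxa2 was above 36.3% to 62.5%. For Vwf the median well lay at 3604 and 2100 CPM in WT and 2057 and 2721 CPM in KO. Thbd (CV of 0.520 to 0.915) and Procr (0.629 to 1.04) came next, and Plat (1.28 to 1.98), Tfpi (1.60 to 2.71) and F8 (2.34 to 6.38) were uneven, with the highest 10% of wells holding 71.0% to 100% of the F8 signal.

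Thbs1 was uneven for its level. Its CV was 3.30 and 1.75 in WT and 2.5 and 1.66 in KO, above 99.1% to 99.7% of the genes whose mean lay within 2-fold of its own in the same sum. F3, with counts in only 6 EC wells, was above 76.2% to 99.8% of such genes in the 3 sums that held it. F8 was above 83.2% to 98.2% of such genes, Plat above 80.6% to 97.8% and Tfpi above 78.6% to 86.1%. For Procr the range was 56.2% to 87.2%, and for Thbd 55.8% to 77.8%. No Thbs1 count was found in 65.5% and 34.0% of WT and 54.0% and 37.1% of KO EC wells, while the highest well of each sum reached 11201, 6096, 12765 and 7330 CPM. The highest 10% of wells held 80.3% and 52.7% of the Thbs1 signal in WT and 74.6% and 52.1% in KO. Cluster c0, of which Thbs1 is a leading gene, held 73.1% of the Thbs1 counts in 36.7% of the EC wells.

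**Figure D4:**
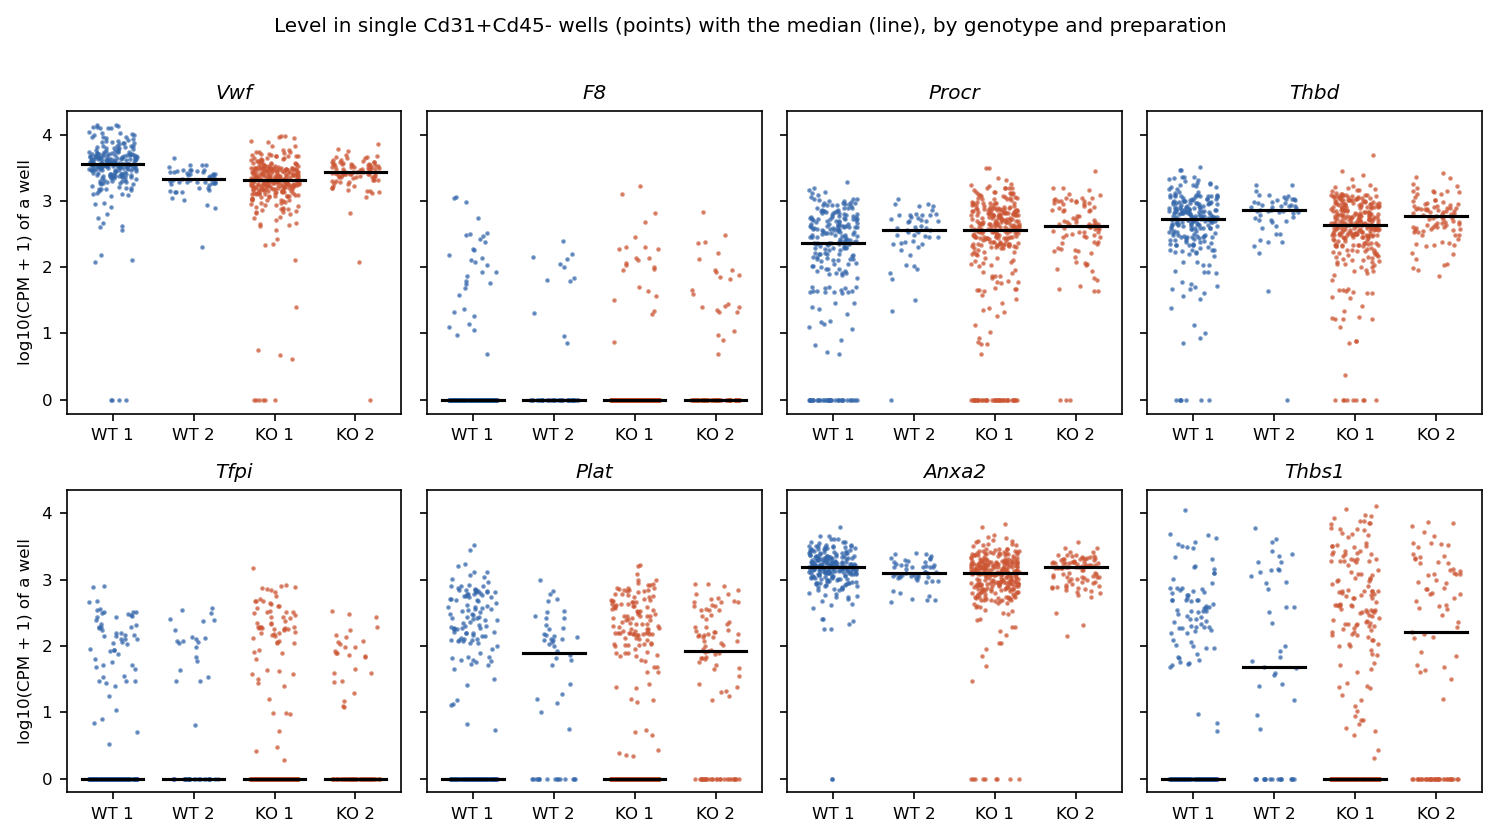
CPM for each well of the EC gate on a log scale for the 9 genes except F3, which is not drawn, in the 4 sums of genotype and preparation. Vwf and Anxa2 are found in nearly every well, whereas 34.0% to 65.5% of wells are at 0 for Thbs1 and the highest wells reach 6096 to 12765 CPM.

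How far the genes went together from well to well was described by Spearman correlations within each EC sum, given depth and number of genes detected, with no test because wells of a sum share their source. Among the 9 genes the mean over the 4 sums was weak, with 0.18 for Thbd and Anxa2, 0.16 for Procr and Plat, 0.16 for Procr and Thbs1, and −0.13 for Plat and Thbs1. The median absolute value over all genes compared lay between 0.036 and 0.047 for each of the 7 members with enough wells, and in sparse counts weak values are given as a description only. Over 6330 genes, the genes most like Vwf were Ctsh (mean rho 0.37), Ptgs1 (0.30) and Stab1 (0.29), those most like Procr were Calcrl (0.35), Car8 (0.33) and Ehd4 (0.31), and those most like Anxa2 were Klk10 (0.35), Plec (0.34) and Ly6a (0.33). Thbd had no close partner, with Heg1 (0.19), Krt80 (0.19) and Lrrc32 (0.18) at the top.

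The closest partners of Thbs1, chosen after their values were seen because Thbs1 was in fewer wells than the naming rule asked, were Bmp4 (mean rho 0.67, 0.61 to 0.78 over the 4 sums), Apoe (0.62) and Tm4sf1 (0.59). Bmp4 encodes a secreted bone morphogenetic protein. It was detected in 81 of 81, 33 of 33, 138 of 139 and 55 of 56 wells with Thbs1 in the WT sums and then the KO sums, and in 82.5%, 82.4%, 71.2% and 90.9% of the wells without, so most EC wells held Bmp4 in either case. Its mean level was 1789, 1392, 1487 and 1406 CPM in wells with Thbs1 and 557, 281, 404 and 402 CPM in wells without, which restates the correlation by which Bmp4 was chosen.

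**Figure D5:**
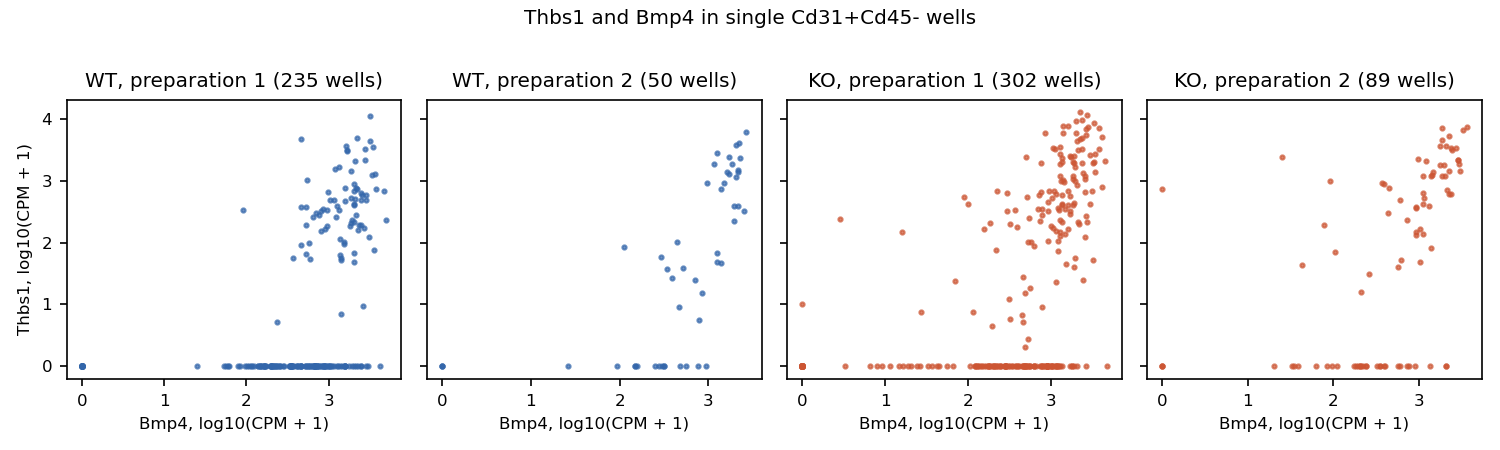
CPM of Thbs1 against CPM of Bmp4 for each well of the EC gate on log scales, in the 4 sums of genotype and preparation. Wells with Thbs1 lie at high Bmp4, with Bmp4 detected in 81 of 81, 33 of 33, 138 of 139 and 55 of 56 of them and in 71.2% to 90.9% of the wells without Thbs1.

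The other genes of these pathways were 67, of which 17 had no count in any kept well and 41 passed the filter on low counts in the gate comparison. Of the 41, 16 were higher in ECs and 8 lower by edgeR, where 9.79% and 9.25% of all 12729 genes tested were, with a median log2 difference of 0.71 against 0.15 over all genes. The circulating factors were largely missing: 8 of 14 had no count, and 2 were tested. F5, the cofactor factor V, was higher in ECs at 4.59 to 13.4 CPM and listed at 0 in every double-negative sum (adjusted p = 0.00857). All 3 tested genes of the F2r receptor family were higher in ECs. The named examples were F2rl1 at 47.5 to 84.9 CPM against 0 to 3.24 CPM and F2rl3 at 1.68 to 9.97 CPM against 0. The 16 include F5, F2rl3, Nt5e and Cd36, which had no count in any double-negative sum. These passed the filter on low counts through the ECs alone and could only be called higher in ECs.

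Of the 7 tested fibrinolysis genes 1 was higher in ECs and 3 lower. Among those lower was Serpine2, which encodes a serpin that inhibits thrombin. It was at 3.79 to 70.6 CPM in ECs against 829 to 2062 CPM in double-negative wells (log2 difference −6.01, adjusted p = 0.000914). Of 10 tested genes of Vwf storage and processing 3 were higher and 2 lower, among them Selp, the P-selectin of Weibel-Palade bodies, at 328 to 400.0 CPM against 0 to 25.3 CPM (8.36, adjusted p = 0.0042).

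Of 5 tested genes by which ECs restrain platelets, Pecam1 left out because it was the sorted antigen, 3 were higher and 1 lower in ECs. Nt5e, an ectoenzyme that makes adenosine, was at 186 to 369 CPM and listed at 0 in every double-negative sum, Nos3, the endothelial nitric oxide synthase, at 144 to 247 CPM against 0 to 54.7 CPM, and Ptgs1, a prostaglandin synthase, at 373 to 541 CPM against 0 to 65.6 CPM. Of 6 tested partners of platelet adhesion 4 were higher, Mmrn2 (7.19) and Cd36 among them, and 2 lower, of which Thbs2 had a log2 difference of −5.77 (adjusted p = 0.000438), opposite in gate to Thbs1. Of 4 tested natural anticoagulants 1 was higher, Hs3st1 (4.91, adjusted p = 0.00407), an enzyme of heparan sulfate, and none of 4 genes of the vitamin K cycle passed (2 at an unadjusted p under 0.05).

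None of the tested other pathway genes passed between genotypes in ECs by edgeR (2 at an unadjusted p under 0.05), and by DESeq2 the count was also 0. Among those lowest in p were Angpt2, an angiopoietin stored with Vwf, at 9.11 and 3.26 CPM in WT and 9.0 and 37.3 CPM in KO ECs (log2 difference 1.95, adjusted p = 0.9995), and Thbs2 (2.09), Serpine2 (1.52) and Gas6 (0.64) with the same adjusted p. Angpt2, Thbs2 and Serpine2 were higher in double-negative wells, and the smooth muscle markers summed to 1186 and 737 CPM in WT and 1670 and 856 CPM in KO ECs and the fibroblast markers to 680.0 and 669 CPM in WT and 778 and 630.2 CPM in KO ECs, whose part in these values was not tested. In double-negative wells none passed by edgeR (6 at an unadjusted p under 0.05) and 2 did by DESeq2, with Ptgs1 lowest in p at 65.6 and 28.3 CPM in WT and 3.39 and 0 CPM in KO (−4.25, adjusted p = 0.441), followed by Nos3, Mcfd2, Selp and F2r. The interaction gave none by edgeR (4 at an unadjusted p under 0.05) and 2 by DESeq2, with Ptgs1 (3.84, adjusted p = 0.955), Nos3, Selp, Thbs2 and Plaur lowest in p. Nos3 and Selp were at 54.7 and 25.3 CPM in the WT double-negative sum of preparation 2 and at most at 0.106 CPM in the others. That sum held the well that clustered with ECs, whose part in these values was not tested.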

How the data were processed

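Single cells were sorted from mouse aorta into plates and their RNA was read by Smart-seq2, without molecular identifiers. The authors aligned reads with STAR 2.7.7a to GRCm38 with ERCC and EYFP sequences, removed duplicates with Picard 2.22.0 and counted reads with HTSeq 0.9.1, and deposited raw counts per gene and well; strand and annotation settings are not given in the sources used here. Of 24519 lines, 92 spike-ins (1.25% of counts) and 5 summary lines (46.9%) were left out, which left 24422 genes.

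Wells with at least 20000 counts and 500 genes were kept. Wells were summed by genotype, gate and preparation, because mice are not labelled and wells of a preparation share them; p-values then measure the spread between 2 preparations. Sums were tested with edgeR 4.0.16 in R 4.3.3 (quasi-likelihood, TMM, filterByExpr, Benjamini-Hochberg, threshold 0.05), the KO comparison in ECs on 4 sums and the others on 8. CPM scale a gene's count to the counts on genes of the sum. Zero counts allow up to 3 counts. Intervals of pooled counts are exact at 95%, and intervals and floors cover counting error only. Clusters were made with Seurat 5.3.0 (2000 variable genes, 30 components, resolution 0.5) and named from markers. No doublet caller was run on the sorted wells. The tests were tried on simulated data. The gates of a genotype and preparation number share a sort label. The labels do not say whether WT and KO of equal number were sorted together. Deviations of equal number correlated by 0.142 between WT and KO ECs, and by 0.0635 in WT and 0.0444 in KO between gates. Named genes were the 9, label checks, and of the other pathway lists the called genes (at most 12 by size) or the 5 with the lowest p; of genes alike, the 3 with the highest mean correlation to genes found in at least 50% of wells. The 9 genes, the lists and the tests were chosen with earlier results of these data known. Alternatives were other normalization, no filter, DESeq2 1.42.0, a preparation block, thinned, deep or marker-matched wells, each preparation alone, and each sum left out. A result on the pathway lists is not reported here.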

Additional observations from a re-analysis of the deposited data

How the results depend on the processing

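Of the gate calls, those of Vwf, F8, F3 and Procr passed under all alternatives run, and the block on preparation changed no edgeR call of the 9 genes in any comparison. Genes passing between genotypes in ECs were 0, but 1 with the replicate block, 1 with RLE size factors, 1 in marker-matched wells, 4 in thinned wells, 37 by DESeq2, 104 without a filter and 5 to 311 when 1 sum was left out (without the KO and the WT sum of preparation 1), of which 0 to 1 of the 9 genes and 0 to 5 other pathway genes (3 without a filter). The gate comparison called 944 genes in preparation 1 alone, 1153 in preparation 2 alone and 1355 to 2542 with 1 sum left out, and 13 and 14 other pathway genes in each preparation alone. In double-negative wells 218 genes passed without a filter, 189 by DESeq2 and 0 to 48 with 1 sum left out, of which 3, 1 and 0 to 1 of the 9 genes and 3, 2 and 0 to 2 other pathway genes. The interaction called 163, 46 and 0 to 42 genes, of which 2 of the 9 without a filter, 0 to 1 with a sum left out, and 3, 2 and 0 to 2 other pathway genes. The signs of several uncalled log2 differences turned. Between genotypes in ECs, F8 was 0.027 in deep wells and F3 −0.13 with the replicate block, and with 1 sum left out Vwf ran from −0.60 to 0.32, F8 −0.17 to 0.15, F3 −7.71 to 2.97, Procr −0.064 to 0.48, Thbd −0.47 to 0.12, Tfpi −0.83 to 0.13, Anxa2 −0.18 to 0.029 and Thbs1 −0.068 to 1.45. Tfpi between gates was −0.084 in preparation 1 alone. Between genotypes in double-negative wells, thinned wells gave Procr −0.14, Tfpi −0.79, Plat −0.57 and F2r −0.53, marker-matched wells Plat −0.14 and deep wells Selp 4.30, and with 1 sum left out F3 ran from −2.88 to 1.14, Procr −9.88 to 11.75, Tfpi −1.10 to 0.67, Plat −0.69 to 0.64, Anxa2 −0.92 to 0.29, Thbs1 −5.85 to 3.32 and Selp −11.04 to 4.41. In the interaction, thinned wells gave F8 0.036, Procr 0.61, Tfpi 0.58 and Plat 0.37, deep wells Nos3 −0.16 and Selp −4.28 and marker-matched wells Nos3 −0.19, and with 1 sum left out F3 ran from −5.58 to 4.45, Procr −11.55 to 10.06, Tfpi −1.06 to 0.67, Plat −0.99 to 0.34, Anxa2 −0.37 to 0.84, Thbs1 −2.80 to 6.34, Nos3 −0.19 to 13.26 and Selp −4.34 to 11.11. The cause was not tested. A sum left alone in its arm was assumed to vary like the others. The double-negative sums of preparation 2, at 988038 and 926398 counts, limit what can be seen there.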
